A study of Mus musculus with 8 samples.

Results

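Collagen chain genes encode the alpha chains that assemble, 3 at a time, into the collagens of the extracellular matrix. They were taken here as every non-control probe on the array whose gene name in the scanner files reads Col, a number, the letter a and a number. This rule found 44 genes carried by 69 probes, out of 34779 gene names and 55681 probes. The genes were compared between mouse livers given AdLeXis and mouse livers given AdGFP, with 4 arrays in each group. AdLeXis is an adenoviral vector for LeXis, a long non-coding RNA named for its link to the sterol-sensing receptor LXR, and AdGFP is a vector for green fluorescent protein. All 8 samples were total RNA of liver from mice of the bl6 strain, aged 12 weeks and fed chow, taken on day 6. The control livers therefore carried a vector too, and no liver without one was part of the comparison. AdLeXis and AdGFP are the names in the treatment tag, the titles and the series design, while the treatment text speaks of other vectors, pblockITcontrol and pblockITshRaly. The tag set the groups. The labels do not say whether each sample came from its own animal, so the p-values are measured against a spread between samples that may be technical in part. Liver is a mixture of cells, and in such bulk RNA fewer cells of a type and less RNA per cell cannot be told apart.

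Each collagen chain carries stretches in which glycine recurs at a fixed spacing, which lets the chains wind into a triple helix. Fibrillar collagens form the cross-banded fibres of connective tissue, type IV forms the sheet of basement membranes, type VI forms beaded microfibrils, and the fibril-associated collagens sit on the surface of fibrils made by others. In liver, the fibrillar chains are mainly products of stellate cells and portal fibroblasts and mark fibrosis when they accumulate, type IV lines vessels and sinusoids, and type XVIII, the precursor of endostatin, is made by hepatocytes.

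Unscaled, the AdLeXis arrays were the brighter ones. Their 75th percentile of deposited processed intensity was 381 to 448, that of AdGFP arrays was 220 to 297, and 62.6% to 67.7% of spots on AdLeXis arrays were well above background, against 58.9% to 62.5% on AdGFP arrays. Between 38 and 42 collagen probes were well above background on each AdLeXis array and between 36 and 38 on each AdGFP array. No spot was saturated (0 on each array). Values below are log2 of the processed intensity after each array was scaled to a common 75th percentile. An alternative, named normexp correction below, corrected background in another way, added an offset of 50 to every intensity and used quantile scaling. Such an offset shrinks log2 differences of dim probes by construction, so a smaller difference there is no check on them. Per the file headers all 8 arrays lay on 1 slide in 1 scan, with the AdLeXis arrays in slide row 2 and the AdGFP arrays in slide row 1, so slide row and group cannot be told apart. Arrays with the same replicate number shared a slide column.

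The glycine repeat can be read from the probes themselves. Of the 69 collagen probes, 4 hold at least 4 glycine codons spaced every 9 bases, against 47 of the 55612 other probes on the array. They are shown because they target the triple-helical part of the chain, and because the Col16a1 probe among them differs in direction from the other Col16a1 probes described below. Capitals mark the in-frame glycine codons (GGN), and each sequence runs 5′ to 3′ as deposited. The probes lie on build mm9 on the plus strand at chr15:55347733-55347792 (Col14a1), chr4:47283786-47283845 (Col15a1), chr4:129756457-129756516 (Col16a1) and chr3:130270497-130270556 (Col25a1). No annotation of that build was used here, so the exons they lie in are not given.
Col14a1: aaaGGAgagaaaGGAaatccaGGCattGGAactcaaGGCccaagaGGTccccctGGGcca
Col15a1: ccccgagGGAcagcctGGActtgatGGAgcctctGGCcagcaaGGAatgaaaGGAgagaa
Col16a1: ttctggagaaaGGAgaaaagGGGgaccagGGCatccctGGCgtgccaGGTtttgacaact
Col25a1: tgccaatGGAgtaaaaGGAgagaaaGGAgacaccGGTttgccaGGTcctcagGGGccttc

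Of the 44 genes, 29 had a probe well above background on at least 4 of the 8 arrays and were tested. Another 10 had probes that stood well above background on 0 arrays: Col2a1, Col10a1 and Col11a1, chains of cartilage collagens, with Col9a3, Col4a3, Col6a4, Col6a5, Col8a1, Col22a1 and Col28a1. The remaining 5 were above background on a few arrays only. Col19a1 was so on 3 AdLeXis arrays and 0 AdGFP arrays, Col26a1 on 2 and 0, Col5a2 on 1 and 1, and Col17a1 and Col6a6 on 0 AdLeXis arrays and 1 AdGFP array each. Of the tested genes, Col24a1 passed the filter with 2 arrays in each group and Col25a1 with 4 AdLeXis arrays and 1 AdGFP array. The plot of detection by gene shows that most classes held both chains seen on every array and chains seen on none.

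**Figure D1:**
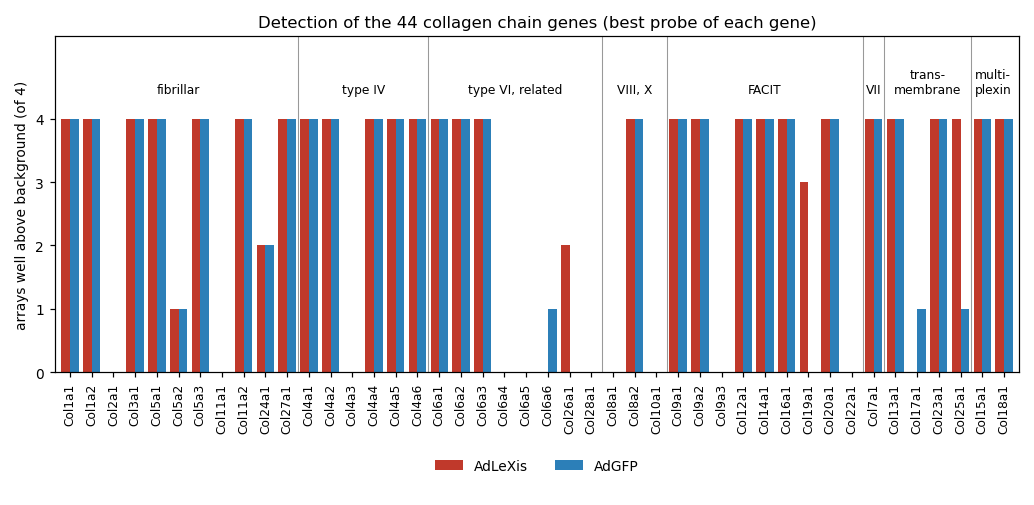
Number of arrays (of 4 in each group) on which the best probe of each of the 44 collagen chain genes was well above background, with AdLeXis in red and AdGFP in blue, by collagen class. Genes with no bar, 10 in all, were above background on no array.

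Few collagen transcripts passed the test. Of the 29 tested genes, 0 were higher in AdLeXis livers (8.73% of all genes were), 1 was lower (Col16a1, against 8.79% of all genes) and 28 did not pass the test (limma, Benjamini-Hochberg adjustment over all genes, threshold 0.05). That is 3.45% of them, where 17.5% of the 23901 genes tested were called (2087 higher and 2100 lower, or 1152 higher and 2675 lower when arrays were scaled to their median). At an unadjusted p under 0.05 there were 5 collagen genes, or 17.2%, where 32.1% of all genes were. The 4 AdLeXis arrays lay entirely on one side of the 4 AdGFP arrays for 2 collagen genes, Col16a1 and Col4a1, both lower, where 24.7% of all genes had no overlap between groups. The median log2 difference, AdLeXis minus AdGFP, was -0.085 over the 29 collagen genes and -0.0021 over all genes tested, and 19 collagen differences were negative and 10 positive.

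Differences of the collagen genes were larger in size than those of all genes, and so was their spread within groups. A wider spread by itself makes differences larger in size, and its part here was not tested. The median size of the log2 difference was 0.33 for the collagen genes and 0.21 for all genes. The collagen genes also varied more between arrays of one group: their median within-group standard deviation was 0.268, against 0.190 over all genes, and it was above 0.4 for 10 of the 29 collagen genes and for 15.0% of all genes. One collagen gene, Col4a5, differed by 2-fold or more, which is 3.45% of those tested and close to the 3.79% of all genes. The plot of differences with their intervals shows most intervals crossing 0.

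**Figure D2:**
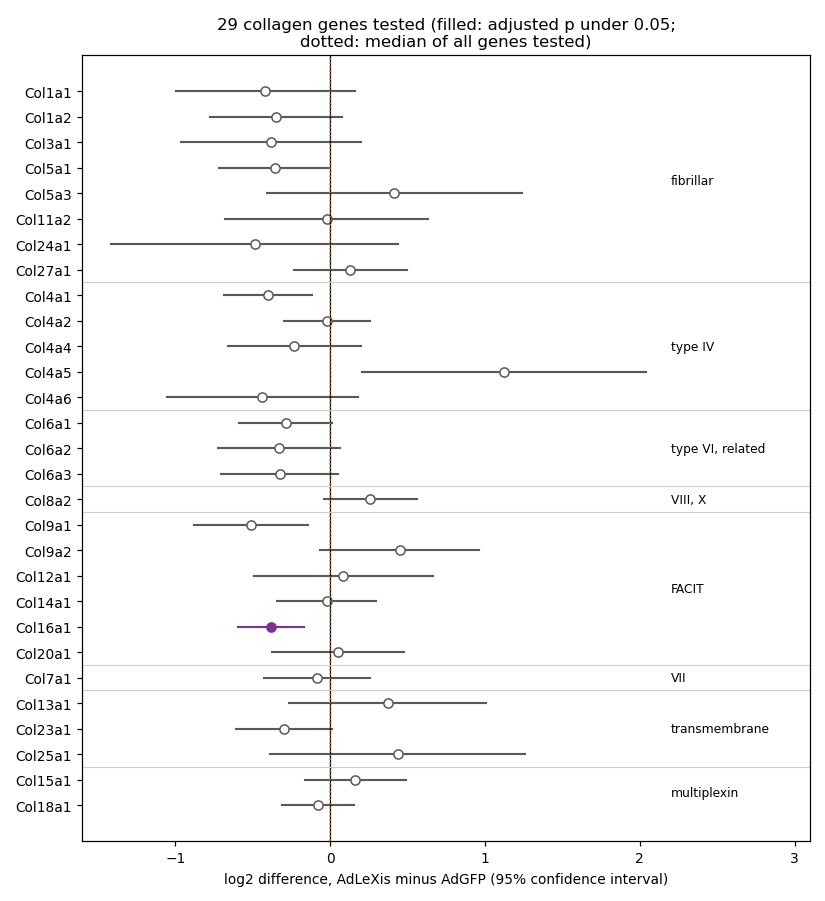
Log2 difference, AdLeXis minus AdGFP, with its 95% confidence interval for the 29 tested collagen chain genes, by class. Filled marks passed the test (Col16a1), open marks did not, and the dotted line is the median of all genes tested.

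Among the 11 fibrillar chains, 8 were tested and 0 passed, with a median difference of -0.35. Col1a1 and Col1a2 encode the chains of type I collagen, the main fibre of scar tissue. Col1a1 read 9.44, 10.36, 9.47 and 10.40 on the 4 AdLeXis arrays, and 10.50, 10.27, 10.05 and 10.52 on the 4 AdGFP arrays. AdLeXis arrays 1 and 3 were lower than every other array, and AdLeXis arrays 2 and 4 lay within the AdGFP range, so the groups overlapped. The difference was -0.42 (95% confidence interval -0.99 to 0.16, limma adjusted p = 0.296). Col1a2 read 11.84, 12.31, 11.88 and 12.31 on the AdLeXis arrays, and 12.55, 12.57, 11.96 and 12.66 on the AdGFP arrays. Here AdGFP array 3 fell among the AdLeXis values while the other 3 AdGFP arrays were above all of them. The difference was -0.35 (interval -0.77 to 0.08, adjusted p = 0.237), and -0.06 with normexp correction and quantile scaling.

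Col3a1, which encodes the type III chain found with type I in reticular fibres, read 11.06, 11.67, 11.03 and 11.93 on the AdLeXis arrays, and 12.13, 11.68, 11.34 and 12.07 on the AdGFP arrays. The groups overlapped again, with AdLeXis arrays 1 and 3 lowest, and the difference was -0.38 (interval -0.96 to 0.20, adjusted p = 0.343), or -0.08 with normexp correction. Col5a1, a type V chain that helps set the diameter of type I fibrils, read 8.24, 8.78, 8.22 and 8.75 on the AdLeXis arrays, and 9.00, 8.93, 8.74 and 8.76 on the AdGFP arrays. Its overlap was slight, since AdLeXis arrays 2 and 4 only just reached the lowest AdGFP arrays, and the difference was -0.36 (adjusted p = 0.156). Col5a2, the other common type V chain, could not be tested. Its probe read 5.07, 1.95, 2.55 and 2.85 on the AdLeXis arrays, and 2.91, 2.88, 2.25 and 2.82 on the AdGFP arrays, and was above background on 1 AdLeXis array and 1 AdGFP array. The other 4 tested fibrillar chains lay between -0.49 (Col24a1) and 0.42 (Col5a3), with adjusted p from 0.457 to 0.970. The Col24a1 value was -0.06 without AdLeXis array 1, and that of Col5a3 was 0.06 without AdGFP array 1. Of the 8 differences 6 were negative, and that of Col11a2, at -0.02, turned positive with normexp background correction and quantile scaling (0.02).

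**Figure D3:**
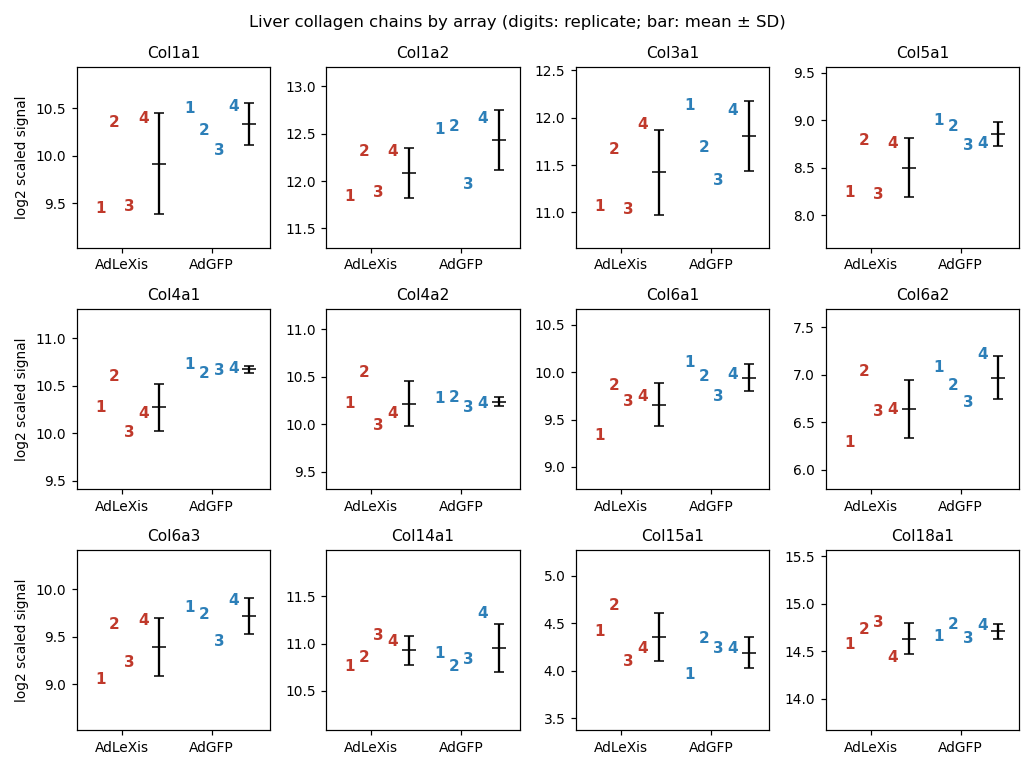
Log2 scaled signal of 12 collagen chains known from liver on each array, with digits giving the replicate number, AdLeXis in red on the left and AdGFP in blue on the right, and bars showing mean ± SD (n = 4 each). AdLeXis arrays 1 and 3 sit lowest for Col1a1, Col1a2, Col3a1 and Col5a1, and Col4a1 is the panel in which the groups do not overlap.

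Of the 6 type IV chains, 5 were tested and 0 passed, with a median of -0.23. Col4a1 and Col4a2 encode the chains of the type IV trimer present in nearly all basement membranes. Col4a1 read 10.28, 10.60, 10.00 and 10.21 on the AdLeXis arrays, and 10.72, 10.63, 10.66 and 10.68 on the AdGFP arrays. Every AdLeXis array was below every AdGFP array, but AdLeXis array 2 by little, and the difference of -0.40 (interval -0.68 to -0.12) had an adjusted p of 0.0595 by limma. It passed with quantile scaling (0.0460), with normexp correction (0.0164) and without AdLeXis array 2 (-0.51, 0.0194). Col4a2 read 10.22, 10.55, 9.99 and 10.11 on the AdLeXis arrays, and 10.27, 10.28, 10.18 and 10.22 on the AdGFP arrays. The AdLeXis arrays spread on both sides of the AdGFP arrays, and the difference was -0.02 (interval -0.30 to 0.26, adjusted p = 0.929) and 0.21 with normexp correction and quantile scaling.

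Col4a1 and Col4a2 lie head to head on chromosome 8 and their promoter windows overlap, so the windows are shown beside these differences. The windows run from 250 bases before to 50 after each start in RefSeq on GRCm38.p6, at chr8:11312777-11313076 on the minus strand for Col4a1 and chr8:11312555-11312854 on the plus strand for Col4a2. Capitals mark the 78 bases that both windows cover, read on opposite strands. They run to the end of each window, so they include the 50 bases after the start of each gene.
Col4a1: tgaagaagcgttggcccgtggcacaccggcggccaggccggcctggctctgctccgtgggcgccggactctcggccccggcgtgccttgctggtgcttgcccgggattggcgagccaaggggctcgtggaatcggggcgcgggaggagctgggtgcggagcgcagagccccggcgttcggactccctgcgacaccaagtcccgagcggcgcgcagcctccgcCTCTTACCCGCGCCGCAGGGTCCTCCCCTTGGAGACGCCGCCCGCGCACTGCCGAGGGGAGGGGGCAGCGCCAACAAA
Col4a2: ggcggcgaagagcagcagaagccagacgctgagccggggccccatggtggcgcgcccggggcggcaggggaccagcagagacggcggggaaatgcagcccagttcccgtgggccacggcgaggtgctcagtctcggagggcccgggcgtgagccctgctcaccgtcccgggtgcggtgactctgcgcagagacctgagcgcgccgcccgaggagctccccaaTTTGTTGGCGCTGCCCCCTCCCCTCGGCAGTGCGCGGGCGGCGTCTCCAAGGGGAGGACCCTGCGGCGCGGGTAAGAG
Both windows hold the letters CCAAT and the letters GGGCGG, searched on both strands. Promoter windows were matched for 35 of the 44 collagen genes, and CCAAT was in 13 of these (37.1%, against 41.1% of 27025 genes with a window), GGGCGG in 22 (62.9%, against 38.2%) and TATAAA in 5 (14.3%, against 15.7%). A match says only that the letters are present.

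The other type IV chains build the specialised membranes of kidney, eye and smooth muscle. Col4a5 read 6.74, 6.52, 6.13 and 7.05 on the AdLeXis arrays, and 5.59, 4.63, 5.10 and 6.62 on the AdGFP arrays. AdGFP array 4 lay among the AdLeXis values and the other AdGFP arrays lay below all of them. The difference was 1.12, or 2.18-fold (interval 1.15 to 4.12), with an adjusted p of 0.0908, without AdGFP array 4 it was 1.50 (adjusted p = 0.0167), and with normexp correction it was 0.43 (adjusted p = 0.198). Col4a4 differed by -0.23 (adjusted p = 0.442) and Col4a6 by -0.44 (adjusted p = 0.306).

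Type VI collagen was measured through the 3 chains of its usual trimer, and 0 of the 3 passed. Col6a1 read 9.33, 9.85, 9.69 and 9.74 on the AdLeXis arrays, and 10.10, 9.95, 9.75 and 9.97 on the AdGFP arrays. Col6a2 read 6.28, 7.03, 6.61 and 6.64 on the AdLeXis arrays, and 7.08, 6.89, 6.71 and 7.21 on the AdGFP arrays. Col6a3 read 9.05, 9.64, 9.23 and 9.67 on the AdLeXis arrays, and 9.81, 9.74, 9.45 and 9.88 on the AdGFP arrays. For each chain AdLeXis array 1 was the lowest of all 8 arrays, and at least 1 AdLeXis array reached into the AdGFP range. The differences were close to one another, at -0.29 (interval -0.59 to 0.01, adjusted p = 0.173) for Col6a1, -0.33 (interval -0.73 to 0.07, adjusted p = 0.229) for Col6a2 and -0.32 (interval -0.70 to 0.05, adjusted p = 0.218) for Col6a3. With normexp correction those of Col6a1 and Col6a3 were both -0.12. The later-found type VI chains Col6a4, Col6a5 and Col6a6, and the related Col26a1 and Col28a1, were not tested.

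The fibril-associated class held the one call. Of its 9 genes 6 were tested, 1 fell and 5 did not pass, with a median of 0.015. Col16a1 encodes the type XVI chain, which associates with fibrils and with fibrillin microfibrils. It read 9.15, 9.28, 9.09 and 9.24 on the AdLeXis arrays, and 9.66, 9.61, 9.37 and 9.64 on the AdGFP arrays. Every AdLeXis array was below every AdGFP array, and AdGFP array 3 was the nearest to the AdLeXis group. Means were 9.19 ± 0.083 in AdLeXis livers and 9.57 ± 0.14 in AdGFP livers (SD, n = 4 each), a difference of -0.38 (interval -0.60 to -0.17, limma adjusted p = 0.0271) or 0.768-fold.

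The Col16a1 call rested on 1 of its probes. The value above came from the brightest, on mm9 at chr4:129776333-129776392. A neighbouring probe at chr4:129776460-129776519 read 5.69, 5.46, 5.64 and 5.34 on the AdLeXis arrays, and 5.55, 5.86, 5.77 and 5.93 on the AdGFP arrays, a difference of -0.25 (adjusted p = 0.206 in the fit over all probes, where 14.9% of 34440 probes were called). The groups overlapped through AdGFP array 1. The probe in the triple-helical stretch, whose sequence is given above, read 3.56, 3.92, 4.0 and 3.66 on the AdLeXis arrays, and 3.21, 2.74, 3.77 and 3.04 on the AdGFP arrays. AdGFP array 3 lay among the AdLeXis values and the other AdGFP arrays lay below them. This probe differed in the opposite direction, by 0.59 (adjusted p = 0.102), and was well above background on 4 AdLeXis arrays but 1 AdGFP array. With the mean of the 3 probes in place of the brightest, the gene's difference was -0.011 (adjusted p = 0.945). That mean sets the rise of this dim probe, which passed the filter through the AdLeXis arrays, against falls in the other 2 probes. With normexp correction the gene's difference was -0.15 (adjusted p = 0.224), and with no filter on dim probes its adjusted p was 0.0572. Leaving out 1 array also ended the call for AdLeXis array 1 (adjusted p = 0.0512), 3 (0.0664) and 4 (0.0591) and for AdGFP array 1 (0.0719), 2 (0.0694) and 4 (0.0647), while the difference stayed between -0.45 and -0.35.

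Col14a1, the type XIV chain of the surface of mature fibrils, read 10.75, 10.86, 11.08 and 11.02 on the AdLeXis arrays, and 10.90, 10.75, 10.83 and 11.32 on the AdGFP arrays. The groups overlapped, with AdGFP array 4 above every AdLeXis array, and the difference was -0.02 (interval -0.34 to 0.30, adjusted p = 0.936), with a second probe at -0.02 as well. With normexp correction and quantile scaling it was 0.38 (adjusted p = 0.0542). Col9a1 and Col9a2 are chains of type IX, which coats cartilage fibrils. Col9a1 read 3.97, 3.47, 3.73 and 3.73 on the AdLeXis arrays, and 4.45, 3.84, 4.40 and 4.24 on the AdGFP arrays. AdLeXis array 1 lay above AdGFP array 2, which was the only overlap, and the difference was -0.51 (adjusted p = 0.0604). It passed without AdLeXis array 1 (-0.59, adjusted p = 0.0494) and without AdGFP array 2 (-0.64, adjusted p = 0.0247), and with median, quantile or loess scaling (adjusted p from 0.0188 to 0.0291), while with normexp correction the difference was -0.16 (adjusted p = 0.132). Col9a2 differed by 0.45 (adjusted p = 0.210), Col12a1 by 0.09 (adjusted p = 0.855) and Col20a1 by 0.05 (adjusted p = 0.883).

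None of the 7 tested genes in the remaining classes passed. Type XVIII, the collagen known as a hepatocyte product, read 14.57, 14.73, 14.81 and 14.43 for Col18a1 on the AdLeXis arrays, and 14.65, 14.78, 14.63 and 14.77 on the AdGFP arrays. The difference was -0.08 (interval -0.31 to 0.16, adjusted p = 0.653), and its sign turned with quantile scaling (0.02) and normexp correction (0.14). Col15a1, the other chain of this class, read 4.41, 4.69, 4.09 and 4.23 on the AdLeXis arrays, and 3.96, 4.33, 4.24 and 4.24 on the AdGFP arrays. The groups overlapped, with a difference of 0.16 (interval -0.16 to 0.49, adjusted p = 0.482), or -0.03 with normexp correction. The triple-helical probe shown above is the one that measured Col15a1 here. Among the transmembrane chains, Col13a1 differed by 0.37, Col25a1 by 0.44 and Col23a1 by -0.30 (adjusted p from 0.170 to 0.452), and Col23a1 passed with median (adjusted p = 0.0497) and quantile scaling (adjusted p = 0.0407). A second Col23a1 probe, well above background on 4 arrays of each group, differed by 0.12 (limma adjusted p = 0.782 over all probes). Col7a1, the anchoring fibril chain of skin, differed by -0.09 (adjusted p = 0.748). Col8a2, a chain of the sheet under the corneal endothelium, differed by 0.26 (adjusted p = 0.212), and its second probe by -0.77 (adjusted p = 0.146 over all probes).

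A shared order of the AdLeXis arrays ran through several classes. For 11 of the 29 tested genes, AdLeXis arrays 2 and 4 both lay above AdLeXis arrays 1 and 3, an order that 13.4% of all genes showed. The 11 genes were Col1a1, Col1a2, Col3a1, Col5a1, Col11a2, Col24a1, Col6a1, Col6a2, Col6a3, Col12a1 and Col16a1. They include 6 fibrillar chains and all 3 tested type VI chains. This order was noticed after the values were seen, and nothing in the labels separates these arrays.

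Chains that share a trimer could be compared within each array, since a scale factor common to the whole array cancels from their ratio. Effects that depend on background or on signal level do not cancel, and several ratios moved with normexp correction, as given below. In all 8 such pairs were compared, in a test that was not planned beforehand. It was an exact two-sided permutation test over 70 relabellings of the arrays, whose smallest possible p is 0.0286. The Col4a1 to Col4a2 log2 ratio, relative to its mean over the AdGFP arrays, was -0.38, -0.38, -0.42 and -0.34 on the AdLeXis arrays, and 0.02, -0.09, 0.05 and 0.03 on the AdGFP arrays. Every AdLeXis array lay below every AdGFP array, with a gap wider than the range of either group. The difference of -0.38 ± 0.035 in AdLeXis livers against 0 ± 0.061 in AdGFP livers (SD, n = 4 each) had an exact p of 0.0286 and did not pass after adjustment over the 8 pairs (0.114). It kept its sign under all 18 alternatives, at -0.65 with normexp correction and between -0.41 and -0.36 with any array left out. A ratio does not say which of the 2 chains differed. The Col4a1 probe had 10 spots on the array, which were averaged, while the Col4a2 probe had 1. What this did to the spread of the ratio was not tested.

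Among the other pairs, the Col9a1 to Col9a2 ratio also had no overlap, at -1.72 to -0.32 on AdLeXis arrays and -0.18 to 0.16 on AdGFP arrays, a difference of -0.96 (exact p = 0.0286, adjusted 0.114), or -0.41 with normexp correction. The Col5a1 to Col5a3 ratio differed by -0.77 (exact p = 0.0571, adjusted 0.152) and the Col4a5 to Col4a6 ratio by 1.56 (exact p = 0.0857, adjusted 0.171). The type I pair differed by -0.069 (exact p = 0.714), with Col1a1 to Col1a2 ratios of -0.31 to 0.19 on AdLeXis arrays and -0.21 to 0.19 on AdGFP arrays. The 3 type VI pairs differed by -0.0060 to 0.044 (exact p from 0.486 to 0.971). For the type I and type VI pairs the spread between arrays was as large as the difference or larger. With normexp correction the differences were -0.46 for Col1a1 minus Col1a2, 0.21 for Col6a1 minus Col6a2, -0.21 for Col6a2 minus Col6a3 and 0.69 for Col4a5 minus Col4a6, and without AdGFP array 1 that of Col5a1 minus Col5a3 was -0.37.

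**Figure D4:**
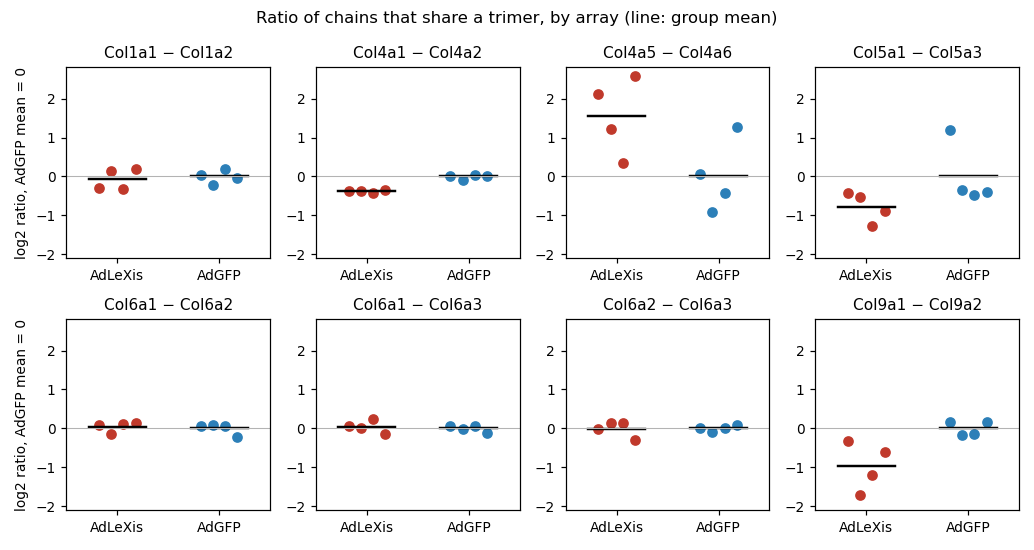
Log2 ratio of 8 pairs of collagen chains that share a trimer, on each array, set to a mean of 0 over the AdGFP arrays, with AdLeXis in red on the left, AdGFP in blue on the right and lines at group means. The Col4a1 to Col4a2 ratio lies between -0.42 and -0.34 on AdLeXis arrays and between -0.09 and 0.05 on AdGFP arrays, and the type I and type VI ratios overlap between the groups.

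The genes that make, finish and hold collagen were followed as lists written from textbook knowledge. Of 22 enzymes and chaperones that modify and fold procollagen in the endoplasmic reticulum, 1 rose, 1 fell and 20 did not pass (median -0.00034), where 8.73% of all genes were higher and 8.79% lower. Colgalt2, which adds galactose to hydroxylysine, was called higher (0.88, SE 0.20, limma adjusted p = 0.0190). However, it passed the filter through the AdLeXis arrays, being well above background on 4 of them and on 1 AdGFP array. Colgalt2, the only rise counted in this list, is therefore given as a description. With normexp correction its difference was 0.08 (adjusted p = 0.422), and the call was lost in 5 of 18 alternatives, among them those without AdGFP array 1 or AdLeXis array 2. Fkbp10, a prolyl isomerase of collagen folding, was lower by limma (-0.49, SE 0.14, adjusted p = 0.0484), a call lost in 9 of 18 alternatives and kept with 1 array left out only for AdLeXis array 2. Serpinh1, the collagen chaperone HSP47, read 8.77, 9.13, 8.68 and 9.42 on the AdLeXis arrays, and 9.56, 9.51, 9.38 and 9.50 on the AdGFP arrays. It overlapped through AdLeXis array 4, and its difference was -0.49 (adjusted p = 0.0700). It passed with normexp correction (-0.63, adjusted p = 0.0101) and with a trended and robust variance model (adjusted p = 0.0304). The count of falls in this list ran between 0 and 2 with 1 array left out, with 2 without AdLeXis array 2, and was 4 with normexp correction.

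Of 11 measured genes for procollagen trimming and crosslinking, 2 rose, 1 fell and 8 did not pass (median -0.17), where 8.73% of all genes were higher and 8.79% lower. The count of rises was 0 with median scaling or without AdLeXis array 2, and 1 with quantile, loess or normexp scaling. Bmp1, the protease that removes the C-terminal propeptide of fibrillar procollagens, averaged 13.95 ± 0.080 in AdLeXis livers and 13.56 ± 0.13 in AdGFP livers (SD, n = 4 each), a rise of 0.40 (adjusted p = 0.0211) that was lost with median scaling (0.32, adjusted p = 0.0889), with the replicate block and without AdLeXis array 2 or 3, and was 0.77 with normexp correction. Loxl4, a crosslinking oxidase, rose by 0.47 (adjusted p = 0.0444), with a call that held with 1 array left out only for AdLeXis array 3, was lost with each other scaling, and gave -0.0046 with the mean of its probes. Adamts14, which removes the N-terminal propeptide, fell by 0.42 on the log2 scale (adjusted p = 0.0372), a call lost without AdLeXis array 2, 3 or 4 or AdGFP array 2, 3 or 4, with no filter on dim probes, with the replicate block and with the mean of its probes (-0.12, adjusted p = 0.569). Pcolce, the enhancer of the C-propeptide protease, read higher on all AdLeXis arrays than on any AdGFP array, at 12.56 ± 0.13 in AdLeXis livers and 12.23 ± 0.20 in AdGFP livers, and did not pass (0.33, adjusted p = 0.0977; 0.0448 with a trended and robust variance model).

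Of 18 measured proteins that bind collagen fibrils, 0 rose, 1 fell and 17 did not pass (median -0.12), where 8.73% of all genes were higher and 8.79% lower. Thbs1, thrombospondin 1, was the one that fell (-0.62, adjusted p = 0.0328), and it was called with 1 array left out only for AdLeXis array 2 and AdGFP array 2, and not with the replicate block or with no filter on dim probes. Sparc, a collagen-binding matricellular protein, lay lower on all AdLeXis arrays than on any AdGFP array (-0.34, adjusted p = 0.0613; 0.0190 with a trended and robust variance model, and -0.22 with quantile scaling). Of 15 measured collagen-degrading enzymes and their inhibitors, 2 rose and 0 fell, where 8.73% of all genes were higher and 8.79% lower (median 0.019; 9 had an unadjusted p under 0.05, where 32.1% of all genes did). The rises were Pepd and Timp4, and Timp4 is counted through a filter passed by the AdLeXis arrays alone. With median scaling 1 rose (Timp4) and 2 fell. Timp4, a metalloproteinase inhibitor, read 4.70, 4.89, 4.50 and 4.15 on the AdLeXis arrays and stood well above background on 0 of the AdGFP arrays, so it was at least 2.87-fold higher in AdLeXis livers on this scaling (adjusted p = 0.00300). This bound sets the AdLeXis mean against the mean of the higher, on each AdGFP array, of the probe's own signal and the lowest signal well above background. The probe passed the filter through the AdLeXis arrays alone, so its rise is given as a description. With normexp correction the Timp4 difference was 0.26 on the log2 scale (adjusted p = 0.0164), but the offset of 50 shrinks it by construction. Pepd, the dipeptidase that frees proline from collagen fragments, rose by 0.29 (adjusted p = 0.0445) and lost its call in 11 of 18 alternatives, among them median scaling (0.21, adjusted p = 0.227) and leaving out any single array but AdLeXis array 1.

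Of 8 measured collagen receptors, 1 rose and 1 fell (median -0.017), where 8.73% of all genes were higher and 8.79% lower. Lair1, an inhibitory receptor of immune cells for collagen, read 9.49, 9.07, 9.20 and 9.07 on the AdLeXis arrays, and 10.17, 9.86, 9.86 and 9.79 on the AdGFP arrays. The groups were well apart, and Lair1 fell by 0.71 on the log2 scale (SE 0.13, adjusted p = 0.00859), a call kept under all 18 alternatives. Itga10, the alpha chain of a collagen-binding integrin, rose by 0.47 (adjusted p = 0.0225), a call lost without AdLeXis array 2, 3 or 4 or AdGFP array 2 or 4, with median scaling (0.38, adjusted p = 0.0925), with normexp correction (0.23, adjusted p = 0.0961) and with the replicate block. The discoidin receptor Ddr1 differed by 0.35 (adjusted p = 0.138).

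Of 16 partners of type IV collagen in basement membranes, 2 rose, 3 fell and 11 did not pass (median -0.080), where 8.73% of all genes were higher and 8.79% lower, and all 5 that passed were laminin chains. Lamb3, a beta chain of an epithelial laminin, read 7.53, 8.25, 7.83 and 8.40 on the AdLeXis arrays, and 6.72, 7.32, 6.82 and 6.79 on the AdGFP arrays. It rose by 1.09 (SE 0.21, adjusted p = 0.0117) and kept this call under all 18 alternatives. Lama3, the alpha chain of the same laminin, moved the other way, at 6.86, 7.19, 7.35 and 7.10 on the AdLeXis arrays, and 7.60, 7.97, 8.44 and 7.70 on the AdGFP arrays (-0.80, adjusted p = 0.0248). The groups did not overlap for either chain. Lama5 rose by 0.50 (adjusted p = 0.0221), and the widely expressed chains Lamc1 and Lamb1 fell by 0.50 (adjusted p = 0.0217) and by 0.40 (adjusted p = 0.0405). The call of Lama3 was lost without AdLeXis array 1, 2 or 4 or AdGFP array 2, that of Lamc1 without AdLeXis array 2 or 3 or AdGFP array 2, that of Lama5 without AdLeXis array 4 or AdGFP array 2 or 3, and that of Lamb1 without any single array but AdGFP array 3. The Lama5 call was also lost with median scaling (0.41, adjusted p = 0.0511), that of Lamc1 with normexp correction (-0.19, adjusted p = 0.474), those of Lama3 and Lamb1 with no filter on dim probes, and that of Lamb1 with the replicate block. The count of falls was 0 without AdLeXis array 2.

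Of 18 genes of TGF-beta signalling, the main inducer of collagen in fibroblasts, 0 rose, 4 fell and 14 did not pass (median -0.34), where 8.73% of all genes were higher and 8.79% lower. Tgfbi, a TGF-beta-induced matrix protein that binds collagens, read 13.49, 13.46, 13.42 and 13.32 on the AdLeXis arrays, and 14.16, 14.03, 13.83 and 14.10 on the AdGFP arrays, and fell by 0.61 (SE 0.095, adjusted p = 0.00489). The ligand Tgfb3 fell by 0.59 (SE 0.11, adjusted p = 0.0110). Both kept their calls under all 18 alternatives. The feedback gene Skil (-0.38, adjusted p = 0.0233) and the receptor Tgfbr2 (-0.34, adjusted p = 0.0371) fell as well, but their calls were lost in 7 and 10 of 18 alternatives, Tgfbr2 with median scaling among them (adjusted p = 0.0501). The count of falls was 2 without AdLeXis array 4 or AdGFP array 1, with no filter on dim probes and with the replicate block.

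**Figure D5:**
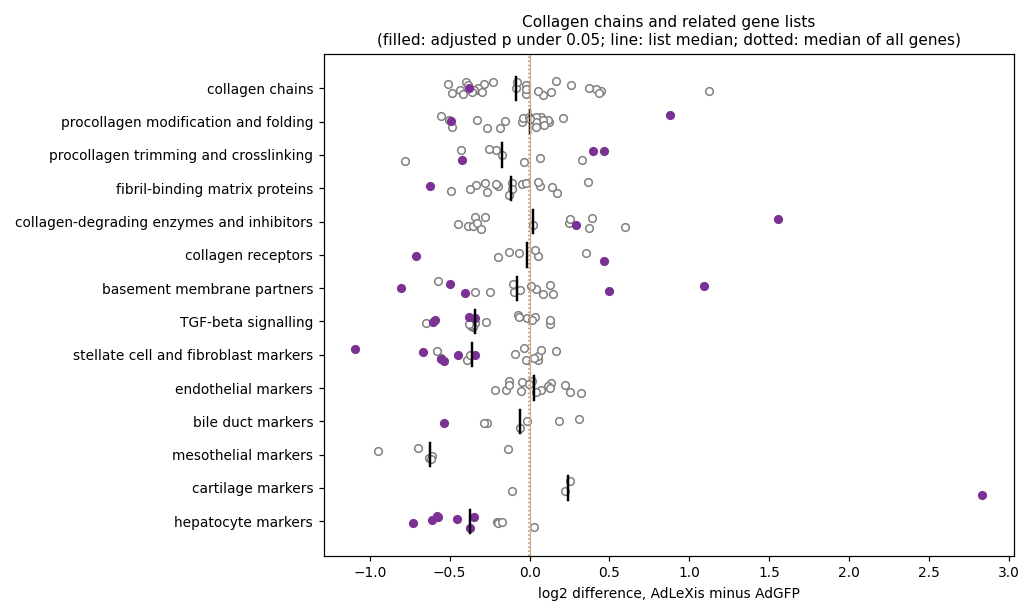
Log2 difference, AdLeXis minus AdGFP, of each measured gene in the collagen chains and 13 related lists. Filled marks passed the test, black lines are list medians, and the dotted line is the median of all genes; the collagen median is -0.085 and the TGF-beta median -0.34.

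Markers of the cells that make collagen moved as follows, and their part in the collagen values was not tested. Of 18 stellate cell and fibroblast markers 6 fell and 0 rose, where 8.79% of all genes were lower (median -0.36, summed level 15.42 to 15.66 on AdLeXis arrays and 15.51 to 15.92 on AdGFP arrays on the log2 scale), and the count was 3 without AdLeXis array 2 or 4. The largest fall was that of Thy1, a fibroblast and lymphocyte surface protein, by 1.09 (SE 0.16, adjusted p = 0.00397), and Cygb, a stellate cell globin, fell by 0.45 (adjusted p = 0.0195). Differences of the 12 markers that did not pass ran from -0.58 (Tagln) to 0.17 (Lrat). Hgf, Gfap, Reln, Ecm1, Lhx2, Colec11 and Hand2 lay between -0.090 and 0.071. These genes were named after their values were seen. Of 16 endothelial markers 0 passed, where 17.5% of all genes did, and 0 had an unadjusted p under 0.05, where 32.1% did (median 0.027). With normexp correction 1 was called higher. Of 6 mesothelial markers 0 passed and 2 had an unadjusted p under 0.05 (median -0.62), beside the same 17.5% and 32.1% of all genes. In 7 of 18 alternatives 1 was called lower, among them median, loess and normexp scaling and leaving out AdLeXis array 3 or AdGFP array 2. Of 7 bile duct markers 1 fell, Epcam (-0.53, limma adjusted p = 0.0359), where 8.79% of all genes were lower. The Epcam call held with 1 array left out only for AdLeXis array 4 and AdGFP array 1. Its difference was -0.18 with normexp correction (adjusted p = 0.146). Hepatocyte markers, which check the label liver, were the brightest list, with a summed level of 20.60 to 20.83 on AdLeXis arrays and 21.16 to 21.22 on AdGFP arrays, and 7 of 11 fell (1 of 11 with quantile scaling or normexp correction). Over all genes with a mean level above 15, 24.0% were lower and 1.14% higher. Of 4 measured cartilage markers 1 rose, Hapln1, where 8.73% of all genes were higher. Hapln1, the link protein that ties hyaluronan to proteoglycans, read 7.15, 7.21, 6.32 and 7.24 on the AdLeXis arrays, and 4.03, 3.52, 4.55 and 4.49 on the AdGFP arrays. The difference was 2.83 (SE 0.28, limma adjusted p = 0.00104), or 1.31 with normexp correction. Acan and Comp, other cartilage matrix genes, differed by 0.22 and 0.25 (adjusted p = 0.475 and 0.485), and the cartilage collagen Col2a1 was above background on no array.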

How the data were processed

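Spot intensity is linear in the deposited scanner files, which came from Agilent Feature Extraction (version 11.5.1.1 in the file headers, 11.5.1.11 in the submitters' processing notes). Per the file headers, background had been subtracted from the processed intensity and arrays had not been scaled to each other, and probe coordinates are mm9. The deposited series table matched the processed intensity of the scanner files (relative difference 0), is linear and uncentred, and had column medians of 12.7 to 27.7.

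Here the deposited intensity was put on a log2 scale, each array was shifted to a common 75th percentile (59305 non-control spots), outlier spots (127 to 256 per array) were dropped, and the spots of a probe were averaged. Probes stayed in if 4 or more arrays were well above background and 2 or more per group were measured, which gave 34440 probes (38 of the 69 for collagen). The brightest remaining probe stood for its gene (23901 genes). RefSeq accessions in a GRCm38.p6 table named 27656 probes and symbols 3722; another 24303 went by their file names, and 0 collagen genes were renamed. The groups entered one limma 3.58.1 fit (lmFit, eBayes, R 4.3.3), two-sided, with Benjamini-Hochberg adjustment, and the procedure was tested on simulated data. Correlations across genes were 0.991 to 0.994 within groups and 0.981 to 0.989 between them. The number of arrays limits the precision. Replicate numbers are those of the titles, which differ from the numbers in file names.

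The collagen genes and the lists were chosen with earlier results of these data known. Values on every array are given for members past the threshold and for 13 textbook liver chains, and up to 4 genes of smallest p are named from each list. Array values of Col4a5, Col9a1, the other Col16a1 probes, Serpinh1, Timp4, Lair1, the laminins, Tgfbi and Hapln1 were added after they were seen. Alternatives were other scalings, normexp correction (offset 50, with quantile scaling), other probe filters and probe rules, another variance model, a replicate block and leaving out each array. The chain pairs were recomputed under these after the data were seen.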

Additional observations from a re-analysis of the deposited data

Results flagged for a closer look

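In 5 of the 58 groups of 4 arrays formed by the tested collagen genes, 1 array lay apart from the other 3, its gap taking more of the group's range than Dixon's 95% critical value for 4 arrays allows. Chance gives this in about 1 in 20 groups. All 5 were AdGFP arrays below the rest of their group. Col5a3 read 9.63 on AdGFP array 1 and 10.99 to 11.12 on the other AdGFP arrays. Col27a1 read 7.90 on the same array and 8.29 to 8.33 on the others. Col1a2 read 11.96 on AdGFP array 3, against 12.55 to 12.66 on the others, and Col16a1 read 9.37 on that array, against 9.61 to 9.66. Col4a6 read 5.97 on AdGFP array 4, against 6.13 to 6.16. Without AdGFP array 3 the Col16a1 difference was -0.45 (limma adjusted p = 0.0178).

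Some collagen probes that the comparison did not use were well above background on AdLeXis arrays and on 0 AdGFP arrays. Only this direction was searched. The Col19a1 probe was so on 3 AdLeXis arrays, where it read 4.02, 3.40 and 3.38, against 1.38 to 2.15 on the AdGFP arrays. On AdLeXis array 4 it read 2.01. A Col25a1 probe was so on 2 AdLeXis arrays, reading 2.79 and 6.54, and a Col26a1 probe on 2, reading 3.60 and 3.91. These differences were not tested, and the AdLeXis arrays had more spots above background in all.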

How the results depend on the processing

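Over 18 alternatives the median collagen difference stayed negative, between -0.22 and -0.059, while the number of collagen genes called stayed at 4 or fewer. The count lower in AdLeXis was 3 with median scaling, 4 with quantile scaling, 2 with cyclic loess, 3 with probes above background on all 8 arrays, 2 with a trended and robust variance model, and 0 with no filter on dim probes or with the mean of a gene's probes. With 1 array left out it ran from 0 to 2, the count higher from 0 to 1, and all genes called from 2514 to 4106. The replicate numbers in the titles did not pair the samples (correlations of same-numbered deviations from -0.00058 to 0.116), and with the replicate number as a block 1 collagen gene was called higher (Col4a5, adjusted p = 0.0419) and 2 lower (Col9a1, adjusted p = 0.0279, beside Col16a1, adjusted p = 0.0456). Since arrays of the same replicate number shared a slide column, the replicate block was also a block on slide column. A block on slide or scan was not run, since there was 1 of each.

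Some values changed sign, and the cause was not tested. With normexp correction these were Col4a2 (0.21), Col14a1 (0.38), Col18a1 (0.14), Col11a2 (0.021), Col8a2 (-0.0063), Col12a1 (-0.051), Col15a1 (-0.033), Col20a1 (-0.017), Comp (-0.038) and Alb (0.27). With quantile scaling they were Col18a1 (0.022), Cyp2e1 (0.030) and Ttr (0.0029), with median scaling Col20a1 (-0.031), and with the mean of a gene's probes Col18a1 (0.038), Col8a2 (-0.26) and Loxl4 (-0.0046). With 1 array left out, Col4a2 ran from -0.13 to 0.055, Col11a2 from -0.22 to 0.19, Col12a1 from -0.13 to 0.26, Col14a1 from -0.088 to 0.10 and Col20a1 from -0.083 to 0.19. Dim probes limit the reading of the chains near background, such as Col24a1 and Col25a1.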
